A study of Rattus norvegicus with 10 samples.

Results

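The genes described here are the Toll-like receptors and the lipopolysaccharide sensing proteins of rat lung, chosen by name because lipopolysaccharide was used to make the disease model: Tlr2, Tlr3, Tlr4, Tlr5, Tlr6, Tlr7, Tlr9, Cd14, Ly96 and Myd88. Of these 10 genes, 9 were found among the 22250 genes of the deposited table, and all 9 had enough reads to be tested; Ly96 was not analysed here. Messenger RNA was sequenced from lung tissue in 10 libraries, 5 named XBS and 5 named MOD. The design text describes rats in which neutrophilic asthma was induced with lipopolysaccharide and ovalbumin, and to which a formula abbreviated SP was given. The labels expand neither name, tie neither to SP or to untreated animals, and give no strain, age, dose or time, which leaves XBS and MOD as names only. They also list 16HBE, a human bronchial epithelial line, whereas the table holds rat genes with lung tissue markers: the surfactant gene Sftpc and 7 other alveolar type 2 genes summed to 16865 to 34076 CPM in XBS, against 25038 to 32295 CPM in MOD. Here CPM is the read count relative to the scaled total of its library. Whether each library is a different rat is not in the labels, and the p-values therefore reflect the spread from library to library. That spread was larger than counting noise: chi-square per degree of freedom was 9.46 to 59.4 over the 20 pairs of libraries within a group. How much of it came from animals, tissue sampling or library preparation was not tested.

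Toll-like receptors are membrane proteins that recognise conserved parts of microbes. Tlr4 binds lipopolysaccharide, the outer membrane lipid of Gram-negative bacteria, together with the small protein MD-2, which Ly96 encodes; Cd14 hands the lipid to that pair. Tlr2 recognises bacterial lipoproteins, with Tlr6 or Tlr1 as its partner, and Tlr5 recognises flagellin. Tlr3, Tlr7 and Tlr9 sit in endosomes and recognise nucleic acids: RNA duplexes, single-stranded RNA and unmethylated DNA. All of these except Tlr3 signal through the adaptor Myd88, which leads to NF-kB and to inflammatory cytokines, while Tlr3 uses the adaptor encoded by Ticam1, and Tlr4 uses both. In lung, macrophages, neutrophils, dendritic cells, epithelium and endothelium express different members.

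Totals ranged from 11998979 to 15518929 counts per library, and the 9 genes had 21 counts (Tlr9 in MOD 3) to 1009 counts (Myd88 in XBS 4). Of all 14320 genes tested with edgeR, 11 passed an adjusted p of 0.05. XBS 2 and XBS 3 stood apart from the rest in airway markers: 9 ciliated cell genes summed to 349 and 355 CPM in them, 587 to 1001 CPM in the other XBS libraries and 681 to 816 CPM in MOD.

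None of the 9 genes passed the threshold: 0 rose, 0 fell and 9 did not pass, with adjusted p from 0.224 to 0.868. Of all tested genes 0.0768% passed, 0.0279% higher and 0.0489% lower in XBS. The means of the lipopolysaccharide receptor Tlr4 and its co-receptor Cd14 differed between XBS and MOD by less than 1 SD of either group. Myd88, Tlr7 and Tlr3 had the smallest p, with values 1.18-fold, 1.30-fold and 1.24-fold higher in XBS. At an unadjusted p under 0.05 edgeR gave these 3 of the 9, all higher in XBS, beside 13.2% of all tested genes, 7.4% higher and 5.78% lower. For 0 of the 9 did the groups stand fully apart, which 2.74% of all tested genes did, 1.61% higher and 1.13% lower in XBS. Log2 fold changes of the 9 genes had a median of 0.24, beside 0.010 over all tested genes, and 6 of 9 were positive, beside 51.9% of all. In bulk tissue, fewer cells of a type and less RNA per cell cannot be told apart.

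**Figure D1:**
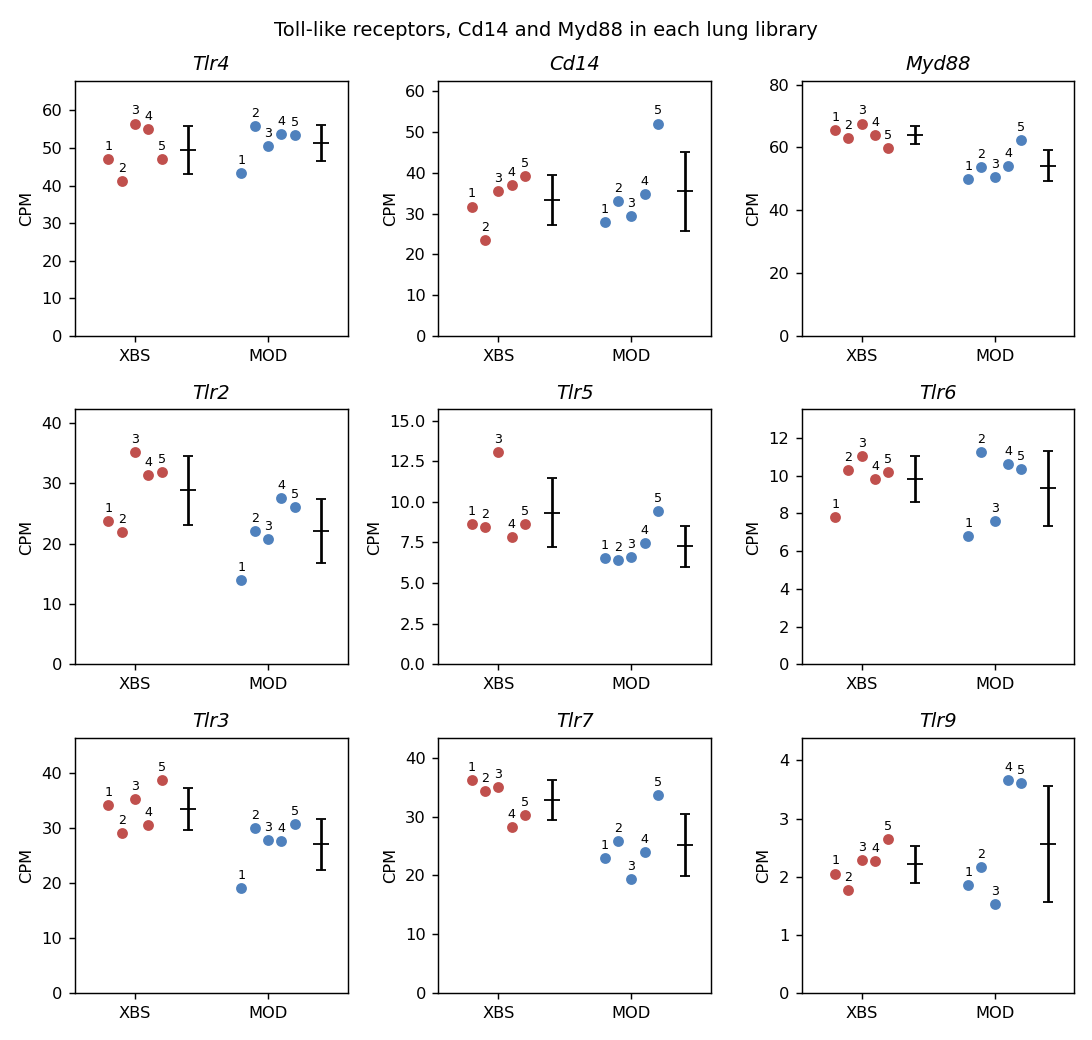
Level of each gene in CPM (vertical axes, from 0) in the 5 XBS libraries (red, left) and the 5 MOD libraries (blue, right); digits are replicate numbers and black bars are mean ± SD. Tlr4 and Cd14 overlap throughout, while 4 of 5 XBS libraries stand above every MOD library for Myd88.

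Tlr4, the receptor of the lipopolysaccharide used in the model, had 47.1, 41.2, 56.5, 55.1 and 47.0 CPM in XBS 1 to 5, against 43.2, 55.8, 50.6, 53.6 and 53.4 CPM in MOD 1 to 5. The lowest and the highest of the 10 libraries, XBS 2 and XBS 3, both belonged to XBS, and the MOD values lay between them. Means were 49.4 ± 6.33 CPM in XBS and 51.3 ± 4.89 CPM in MOD (SD, n = 5 each), a log2 fold change of -0.06 ± 0.10 (SE, edgeR adjusted p = 0.839). The 95% interval of the difference ran from 0.823-fold to 1.12-fold, and without XBS 2 the log2 fold change was 0.0029. Tlr4 (ENSRNOG00000010522) lies on chromosome 5 from 82587420 to 82601052, plus strand, by the coordinates of the table, for which no rat build is named.

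Nr1d1, the nuclear receptor that the design text names, is known in human macrophages as a repressor of TLR4 transcription. Nr1d1 had 87.8 ± 38.8 CPM in XBS and 13.5 ± 8.67 CPM in MOD (SD, n = 5 each; edgeR adjusted p = 0.0759), and every XBS library was above every MOD library. The promoter of rat Tlr4 is shown because of that background. It is the RefSeq sequence of build GRCr8, chr5:85160997-85161296, plus strand, from 250 bases before to 50 after the transcript start; this build is named for the sequence only and not for the table. Capitals mark matches on either strand to AGGTCA, the core that nuclear receptors of the Nr1d1 kind bind, and to GAGGAA, a core of the myeloid factor PU.1, which reads TTCCTC on the other strand.
Tlr4: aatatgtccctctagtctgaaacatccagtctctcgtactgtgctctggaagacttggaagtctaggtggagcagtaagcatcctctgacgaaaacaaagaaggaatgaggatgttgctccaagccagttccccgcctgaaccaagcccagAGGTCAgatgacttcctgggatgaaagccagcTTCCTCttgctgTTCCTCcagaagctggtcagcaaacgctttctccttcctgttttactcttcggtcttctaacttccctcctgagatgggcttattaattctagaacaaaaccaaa
With the start base as position 0, AGGTCA was found at -99 to -94, and TTCCTC at -67 to -62 and at -55 to -50. AGGTCA occurred in 16.2% of 33469 rat promoters of the same length and in 3 of the 9 genes here (Tlr3, Tlr4 and Tlr9), and GAGGAA in 27.6% and in 6 of the 9. A match of letters is a description and shows no binding.

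Cd14, the co-receptor that delivers lipopolysaccharide to Tlr4, had 31.7, 23.6, 35.6, 36.9 and 39.1 CPM in XBS 1 to 5, against 27.8, 33.2, 29.5, 34.9 and 52.1 CPM in MOD 1 to 5. MOD 5 was the highest library and XBS 2 the lowest. Means were 33.4 ± 6.07 CPM in XBS and 35.5 ± 9.68 CPM in MOD (SD, n = 5 each; log2 fold change -0.09 ± 0.18, SE; edgeR adjusted p = 0.859). The sign of this small difference rested on single libraries: without MOD 5 the log2 fold change was 0.091 and without XBS 2 it was 0.013. Its 95% interval ran from 0.711-fold to 1.24-fold. XBS 2, the lowest library for both Tlr4 and Cd14, had the highest sum of 14 neutrophil markers, 956 CPM, against 385 to 604 CPM in the other XBS libraries and 355 to 550 CPM in MOD. In every library the deposited FPKM, which divides the count by gene length and library total, was higher for Cd14 than for Tlr4. The ratio of Cd14 to Tlr4 by FPKM averaged 1.33 ± 0.189 in XBS and 1.36 ± 0.320 in MOD (SD, n = 5 each), and the groups overlapped.

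Myd88, the adaptor shared by the receptors, had the smallest p and the smallest standard error of the 9 genes. It had 65.4, 62.9, 67.6, 63.8 and 59.8 CPM in XBS 1 to 5, against 50.1, 53.6, 50.6, 54.2 and 62.3 CPM in MOD 1 to 5. All XBS libraries lay above 4 of the 5 MOD libraries, and only MOD 5 reached into the XBS range, above XBS 5. Means were 63.9 ± 2.91 CPM in XBS and 54.2 ± 4.91 CPM in MOD (SD, n = 5 each), a log2 fold change of 0.24 ± 0.07 (SE) that did not pass (edgeR adjusted p = 0.224). By the deposited FPKM, which is not scaled between libraries beyond the read total, values were 25.0 to 27.0 in XBS and 20.5 to 24.8 in MOD. The share of all genes whose groups stood apart by FPKM was not counted, and by scaled CPM the groups overlapped for Myd88.

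Tlr7, the endosomal receptor for single-stranded RNA, had 36.2, 34.4, 35.0, 28.2 and 30.3 CPM in XBS 1 to 5, against 23.0, 25.8, 19.3, 24.0 and 33.7 CPM in MOD 1 to 5. As with Myd88, every XBS library was above 4 of the 5 MOD libraries and MOD 5 was the exception. The log2 fold change was 0.38 ± 0.14 (SE, edgeR adjusted p = 0.296). With single libraries left out it ran from 0.30 without MOD 3 (edgeR adjusted p = 0.509) to 0.51 without MOD 5 (edgeR adjusted p = 0.108). By Pearson r, Tlr7 and Myd88 also had the highest value among the pairs of the 9 genes, barely above Tlr2 and Tlr4 (0.843 against 0.836). With group means subtracted, log2 CPM of Tlr7 and Myd88 over the 10 libraries had a Pearson r of 0.84 and a Spearman rho of 0.75. By rho other pairs stood higher: Tlr2 and Tlr9 (0.87), Tlr9 and Cd14 (0.82) and Tlr2 and Cd14 (0.76). These values describe 10 points from shared libraries.

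The promoters of Myd88 and Tlr7 are shown because their levels had the highest Pearson r of the pairs. They are from RefSeq build GRCr8, with the same window and position count as above. That of Myd88 is chr8:127956181-127956480, minus strand, and that of Tlr7 is chrX:30644176-30644475, plus strand. Capitals mark the core of the interferon-stimulated response element (GAAA, any 2 bases, GAAA) in Myd88 and GAGGAA in Tlr7.
Myd88: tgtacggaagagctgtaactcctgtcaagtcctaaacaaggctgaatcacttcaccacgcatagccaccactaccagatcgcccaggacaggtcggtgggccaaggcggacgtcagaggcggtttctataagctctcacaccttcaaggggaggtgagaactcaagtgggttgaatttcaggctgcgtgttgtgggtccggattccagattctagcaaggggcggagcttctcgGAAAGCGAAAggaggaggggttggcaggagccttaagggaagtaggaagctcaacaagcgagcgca
Tlr7: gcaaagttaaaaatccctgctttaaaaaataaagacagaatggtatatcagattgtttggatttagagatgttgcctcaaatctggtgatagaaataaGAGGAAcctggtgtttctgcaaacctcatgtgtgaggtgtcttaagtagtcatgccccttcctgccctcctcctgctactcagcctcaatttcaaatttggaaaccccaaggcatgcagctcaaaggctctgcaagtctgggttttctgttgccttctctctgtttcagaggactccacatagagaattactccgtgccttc
The interferon element stood at positions -16 to -7 of Myd88, in 1 of the 9 genes and in 3.92% of all promoters. GAGGAA stood at positions -152 to -147 of Tlr7. Searched on both strands, the NF-kB motif (GGG, any 5 bases, CC) was in 3 of the 9 (Tlr2, Tlr3 and Cd14) and in 47.3% of all promoters, and CACGTG, the E-box of the clock activators, in 0 of the 9 and in 6.42% of all.

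Tlr3, the receptor for RNA duplexes, had 34.1, 29.0, 35.3, 30.6 and 38.7 CPM in XBS 1 to 5, against 19.1, 29.9, 27.8, 27.6 and 30.8 CPM in MOD 1 to 5. MOD 1 was the lowest by a wide gap, and 3 XBS libraries lay above every MOD library. The log2 fold change was 0.31 ± 0.13 (SE, edgeR adjusted p = 0.358).

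Tlr9, the receptor for unmethylated DNA, was the least abundant and had a negative log2 fold change, unlike Tlr3 and Tlr7; the difference between these genes was not tested. It had 2.05, 1.78, 2.29, 2.28 and 2.65 CPM in XBS 1 to 5, against 1.86, 2.16, 1.54, 3.66 and 3.61 CPM in MOD 1 to 5. All XBS values lay within the MOD range, whose upper end was set by MOD 4 and MOD 5. At 21 to 55 counts per library, its log2 fold change of -0.22 ± 0.28 (SE, edgeR adjusted p = 0.763) had a 95% interval from 0.563-fold to 1.32-fold. Its size rested on the MOD libraries: it was -0.053 without MOD 4, -0.062 without MOD 5 and -0.36 without MOD 3.

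Tlr2, the receptor for bacterial lipoproteins, had 23.8, 21.9, 35.2, 31.3 and 31.8 CPM in XBS 1 to 5, against 14.0, 22.1, 20.8, 27.5 and 26.1 CPM in MOD 1 to 5. XBS 3, XBS 4 and XBS 5 lay above every MOD library, and XBS 1 and XBS 2 lay within the MOD range. The log2 fold change was 0.38 ± 0.19 (SE, edgeR adjusted p = 0.413), as large as that of Tlr7 with a wider spread. Without MOD 1, the lowest library, it was 0.26. Per gene length the ratio of Tlr2 to Tlr4 was 0.650 to 0.872 in XBS and 0.417 to 0.661 in MOD, so that the lowest XBS library, XBS 1, and the highest MOD library, MOD 4, overlapped by a small margin.

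Tlr6, a partner of Tlr2, had 7.81 to 11.0 CPM in XBS (median 10.2) and 6.81 to 11.2 CPM in MOD (median 10.3), and the groups lay on top of each other (log2 fold change 0.08 ± 0.17, SE; edgeR adjusted p = 0.868). Tlr6 and its neighbour Tlr1 are close paralogues, and the counting could have split reads of their most alike parts. Tlr5, the flagellin receptor, had 8.63, 8.44, 13.1, 7.84 and 8.61 CPM in XBS 1 to 5, against 6.52, 6.42, 6.58, 7.44 and 9.42 CPM in MOD 1 to 5. XBS 3 was far above the rest, and 4 of 5 MOD libraries lay below every XBS library. Its log2 fold change of 0.36 ± 0.18 (SE, edgeR adjusted p = 0.419) was 0.20 without XBS 3 (edgeR adjusted p = 0.562).

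**Figure D2:**
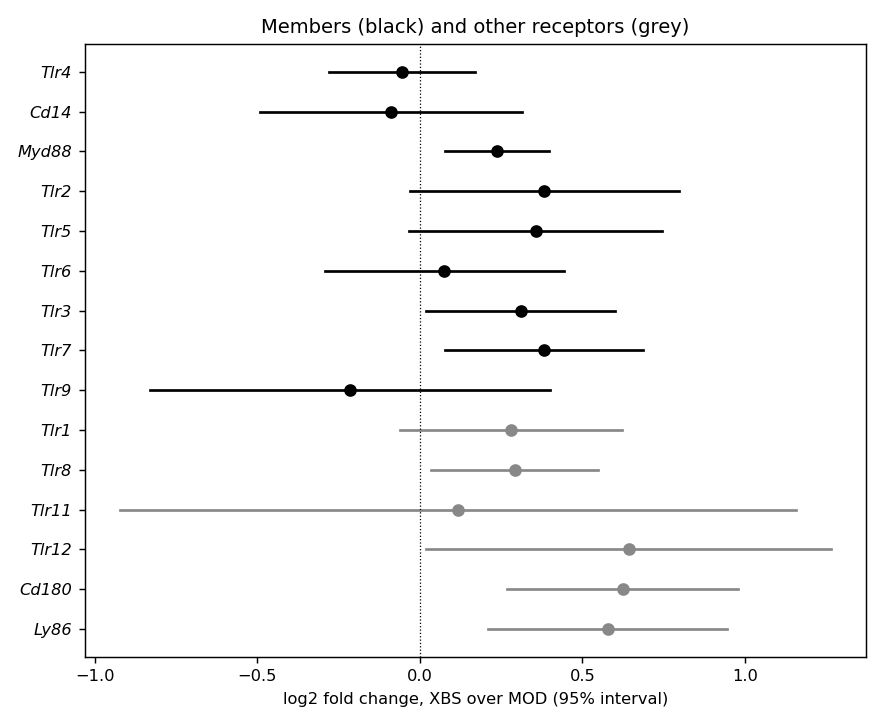
Log2 fold change of XBS over MOD (horizontal axis) for the 9 genes (black) and 6 related genes (grey: Toll-like receptors, Cd180 and its partner Ly86), with 95% intervals from edgeR as lines. Intervals of Myd88, Tlr7 and Tlr3 lie above 0 before adjustment for all genes tested, and those of the other 6 of the 9 genes span 0.

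Compared per gene length by deposited FPKM, the order was Myd88, Cd14, Tlr4, Tlr2, Tlr3, Tlr7, Tlr5, Tlr6 and Tlr9. Myd88 averaged 26.2 ± 0.767 FPKM in XBS and 21.8 ± 1.74 FPKM in MOD (SD, n = 5 each), and was the highest in 9 of the 10 libraries, with Cd14 above it in MOD 5. Tlr4 had rank 3 in all 10 libraries, at 14.9 ± 1.74 FPKM in XBS and 15.2 ± 1.31 FPKM in MOD. Tlr3 and Tlr7 could not be ordered: Tlr3 was above Tlr7 in 5 of the 10 libraries, and their means over all libraries were both 6.77 FPKM. Tlr9 was last in all 10 libraries, at 0.686 ± 0.105 FPKM in XBS and 0.780 ± 0.297 FPKM in MOD, 32.8-fold below Myd88 over all libraries. Tlr5 was above Tlr6 in 9 of the 10 libraries, and every other step of the order held in all 10.

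**Figure D3:**
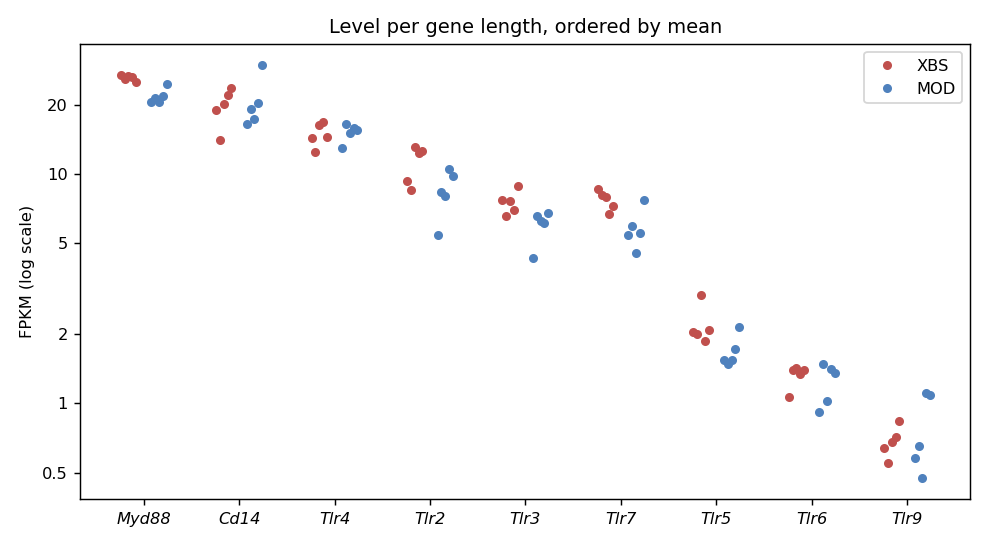
Deposited FPKM (log axis) of the 9 genes, ordered from left to right by mean, with XBS libraries in red on the left and MOD libraries in blue on the right of each gene. Means of Tlr3 and Tlr7 over all 10 libraries are both 6.77 FPKM, with 7.56 and 7.72 FPKM in XBS and 5.98 and 5.81 FPKM in MOD. Tlr9 is the lowest in all 10 libraries.

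Single libraries stood out across several of the genes. XBS 3 was the highest of the 10 libraries for Tlr2, Tlr4, Tlr5 and Myd88, and MOD 1 the lowest for Tlr2, Tlr3, Tlr6 and Myd88. XBS 2 was the lowest for Tlr4 and Cd14. With group means subtracted, all 36 pairs among the 9 genes had a positive Pearson r over the 10 libraries, from 0.086 (Tlr4 and Tlr7) to 0.84 (Tlr7 and Myd88) with a median of 0.54. Tlr2 and Tlr4 had an r of 0.84, and Tlr9 and Cd14 an r of 0.78. These r are descriptions over 10 points that share library composition.

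**Figure D4:**
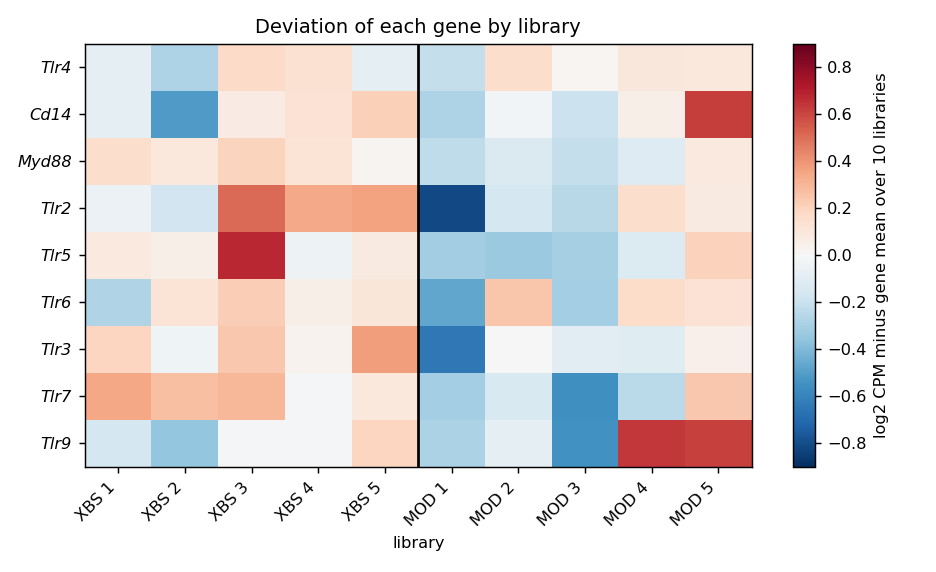
Log2 CPM of each gene (rows) minus its mean over the 10 libraries, for the 5 XBS (left) and 5 MOD libraries (columns), red above and blue below the mean. XBS 3 is highest for 4 of the 9 genes and MOD 1 lowest for 4.

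Outside the 9, the genes whose log2 CPM went most closely with Tlr4, with group means subtracted over the 10 libraries, were Rp2 (Pearson r = 0.98, Spearman rho = 0.99), Fmn1 (0.98 and 0.95), Cxadr (0.97 and 0.92), Adh5 (0.97 and 0.95) and Gzf1 (0.97 and 0.94). Those closest to Cd14 were Macroh2a1 (Pearson r = 0.96, Spearman rho = 0.93), Myo5b (0.96 and 0.95), Ece2 (0.96 and 0.94), Tiam1 (0.96 and 0.98) and Fcrl5 (0.95 and 0.98). They are the highest of the tested genes with a proper symbol, the 9 genes left out, and carry no p.

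Sums of marker genes of cells in the lung differed between the libraries as well. Of 12 listed genes of monocytes and interstitial macrophages, 11 were measured and summed to 659 to 863 CPM in XBS, against 477 to 719 CPM in MOD, and none was at 0 in any library. Of 14 neutrophil genes, all measured, the sums were 385 to 956 CPM in XBS, against 355 to 550 CPM in MOD; their granule genes Mpo and Elane had at most 9 counts in any library. Of 11 alveolar macrophage genes, 8 were measured, with sums of 507 to 823 CPM in XBS, against 510 to 607 CPM in MOD, and Marco had at most 3 counts. B cell genes, 8 of 8 measured, summed to 107 to 231 CPM in XBS, against 73.0 to 165 CPM in MOD. T cell genes, 8 of 8 measured, summed to 187 to 243 CPM in XBS, against 133 to 187 CPM in MOD. Endothelial genes, 7 of 8 measured, were at 2528 to 3839 CPM in XBS, against 3571 to 5073 CPM in MOD. Alveolar type 1 genes, 8 of 8 measured, summed to 4424 to 6700 CPM in XBS, against 6481 to 7804 CPM in MOD. All 8 had negative log2 fold changes, 4 of them at an unadjusted edgeR p under 0.05, and 0 passed. Of all tested genes, 5.78% were lower at that p and 6895 of 14320 were negative. Some other lists also went all or mostly 1 way. Negative were 9 of 9 ciliated cell genes and 6 of 7 endothelial genes, of which 4 had an unadjusted p under 0.05. Positive were 12 of 12 tested neutrophil, 8 of 8 B cell and 7 of 7 tested alveolar macrophage genes. The remaining lists were mixed. Positive and negative were 9 and 2 monocyte and interstitial macrophage, 6 and 2 T cell and 4 and 4 dendritic cell genes. They were 2 and 6 for alveolar type 2, 2 and 5 for tested club cell and 5 and 1 for tested thymus and lymph node genes. Dendritic cell genes summed to 126 to 155 CPM in XBS, against 140 to 170 CPM in MOD. Club cell genes, 8 of 8 measured, summed to 2646 to 9399 CPM in XBS, with the lowest sums in XBS 2 and XBS 3, against 8362 to 12556 CPM in MOD. Of the 7 club cell genes tested, 1 fell, the cytochrome P450 gene Cyp4b1 (edgeR adjusted p = 0.0104). The part of any of these cells in the levels of the receptors was not tested.

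Of 8 listed genes for other Toll-like receptors, Cd180 and its partner Ly86, 6 were measured: 0 rose, 0 fell and 6 did not pass. Their median log2 fold change was 0.43 and 6 of 6 were positive, beside 51.9% of all tested genes. Cd180, a Toll-like homologue best known on B cells, had 18.2 to 23.6 CPM in XBS, against 10.1 to 18.0 CPM in MOD, with groups that did not overlap (1.54-fold, edgeR adjusted p = 0.166). Ly86, which encodes MD-1, the partner of Cd180 and a relative of MD-2, had 15.6 to 21.6 CPM in XBS, against 9.53 to 17.9 CPM in MOD (1.49-fold, edgeR adjusted p = 0.209). Tlr8, beside Tlr7 on the X chromosome, had 46.6 ± 7.66 CPM in XBS and 38.1 ± 3.84 CPM in MOD (SD, n = 5 each; edgeR adjusted p = 0.335).

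The genes that handle lipopolysaccharide or carry the receptors gave no call. Of 4 tested genes of lipid transfer, uptake and inactivation, 0 rose and 0 fell (median log2 fold change 0.18). Casp4, the sensor of lipopolysaccharide in the cytosol, had 14.2 to 22.8 CPM in XBS, against 13.9 to 15.4 CPM in MOD (edgeR adjusted p = 0.287), and Aoah, an enzyme that inactivates lipopolysaccharide, 16.2 to 24.0 CPM in XBS, against 14.9 to 17.1 CPM in MOD (edgeR adjusted p = 0.421). Of 5 folding and trafficking genes, 0 rose and 0 fell (median log2 fold change 0.15). Unc93b1, which escorts Tlr3, Tlr7 and Tlr9 to endosomes, had 69.7 to 101 CPM in XBS, against 56.5 to 87.5 CPM in MOD (1.26-fold, edgeR adjusted p = 0.321). Cnpy3, a folding helper of the receptors, had 69.5 to 77.2 CPM in XBS, against 58.8 to 70.9 CPM in MOD (1.14-fold, edgeR adjusted p = 0.268).

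Downstream of the receptors, 2 genes of the pathway lists passed. Of 22 tested adaptors and kinases, 0 rose, 0 fell and 22 did not pass, with a median log2 fold change of -0.0067. Pik3ap1, an adaptor linking the receptors to phosphoinositide 3-kinase, had 76.5 to 93.9 CPM in XBS, against 54.4 to 68.2 CPM in MOD without overlap (1.34-fold, edgeR adjusted p = 0.0890), and Ikbke, a kinase of interferon induction, was at 57.7 to 101 CPM in XBS, against 39.2 to 70.2 CPM in MOD (edgeR adjusted p = 0.317). Of 6 transcription factors, 1 rose, 0 fell and 5 did not pass (median log2 fold change 0.25). The one that rose was Irf5, which binds Myd88 and drives cytokine genes, at 50.6, 53.2, 53.4, 44.3 and 46.6 CPM in XBS 1 to 5, against 26.7, 30.3, 30.0, 31.1 and 36.0 CPM in MOD 1 to 5 (1.61-fold, edgeR adjusted p = 0.0302). Irf7, which acts with Myd88 below Tlr7 and Tlr9, had 209, 195, 185, 66.7 and 226 CPM in XBS 1 to 5, against 52.7, 70.1, 105, 126 and 62.7 CPM in MOD 1 to 5 (2.11-fold, edgeR adjusted p = 0.228). XBS 4 lay within the MOD range and the other XBS libraries above it.

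Of 14 brakes on the pathway, 0 rose, 1 fell and 13 did not pass (median log2 fold change -0.08). The 1 that fell was Nfkbia, the inhibitor that holds NF-kB in the cytosol, at 156 to 211 CPM in XBS, against 259 to 392 CPM in MOD (log2 fold change -0.84 ± 0.13, SE; edgeR adjusted p = 0.0445). Zfp36, which destabilises cytokine messages, had 113 to 154 CPM in XBS, against 158 to 251 CPM in MOD, without overlap (log2 fold change -0.50, edgeR adjusted p = 0.185). The calls of both Irf5 and Nfkbia were lost when XBS 1, XBS 2, XBS 3, MOD 2, MOD 3 or MOD 4 was left out, and that of Nfkbia also without XBS 4 and with RLE scaling. Both were also lost without XBS 2 and XBS 3 together and without MOD 4 and XBS 5 together.

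Of 20 genes that lipopolysaccharide is known to induce, 13 had enough reads, and 0 rose, 0 fell and 13 did not pass (median log2 fold change 0.24). Their directions were mixed, with 8 positive and 5 negative log2 fold changes. Tnf had at most 1 count per library in XBS and 3 in MOD, and Il6 at most 4 in each group, so that a difference in these cytokines was not detectable at this depth. Il1b, which encodes interleukin-1 beta, had 35.3 to 65.1 CPM in XBS, against 23.9 to 38.8 CPM in MOD (edgeR adjusted p = 0.162). Acod1, an enzyme of activated macrophages that makes itaconate, had 0.666 to 1.73 CPM in XBS, against 0.133 to 0.779 CPM in MOD, from 2 to 25 counts per library (edgeR adjusted p = 0.156).

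**Figure D5:**
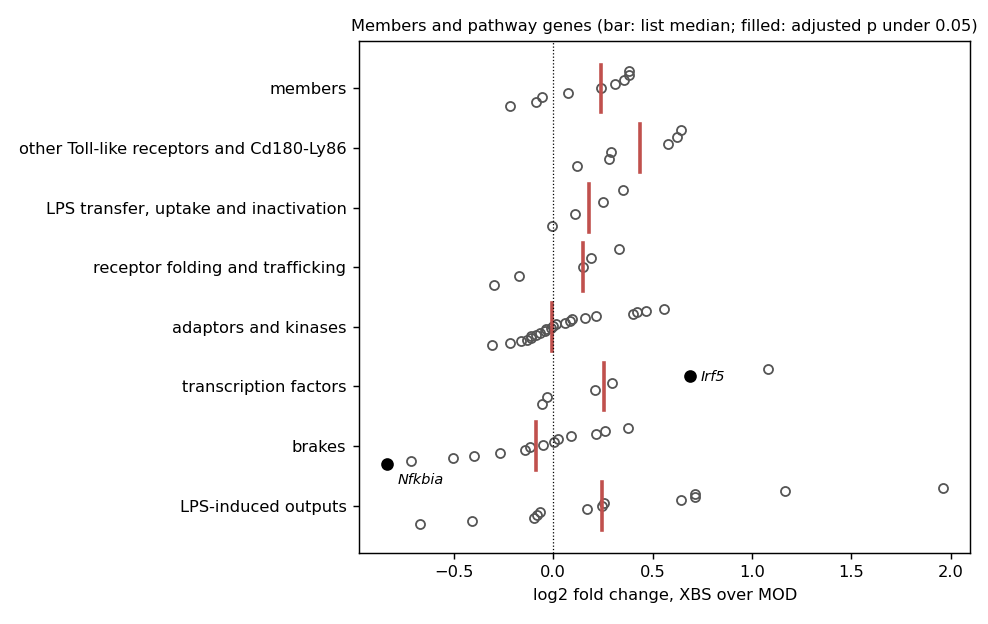
Log2 fold change of XBS over MOD (horizontal axis) for the 9 tested genes (labelled members) and for each pathway list (rows), with every tested gene as a circle and the list median as a red bar. Filled circles passed an adjusted p of 0.05: Irf5 rose and Nfkbia fell.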

How the data were processed

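The table that the authors deposited holds, per the file headers, counts and FPKM for each library; counts were whole numbers and not normalized. Deposited FPKM equalled count divided by gene length and by library total, to within a relative 8.82e-08, and served to compare levels between genes. Trizol was used to extract RNA and messenger RNA was then purified, per the labels' protocols; strand, aligner, counter and rat build are named in none of the sources used. The submitters' processing notes name hg38, GRCh38 and mm10, which are not rat. None of the 9 genes overlapped another gene of the table.

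A filter by filterByExpr (count 10, total 15) kept 14320 genes, which hold 99.921% of counts. TMM scaling and the robust quasi-likelihood test of edgeR 4.0.16 (R 4.3.3) gave XBS over MOD, two-sided; p was adjusted by Benjamini-Hochberg over these genes, with a threshold of 0.05. CPM uses TMM-scaled totals; at these depths 3 counts are 0.19 to 0.247 CPM. Standard errors are the log2 fold change over the square root of F. Genes were matched to RefSeq promoters by symbol (9 of 9). Scripts were tested on simulated counts.

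The genes and lists were chosen with earlier results of these data known. Named from each pathway list were genes past the threshold and the 2 of smallest p; Tlr8, Tnf, Il6, Mpo, Elane, Marco and the promoters shown were chosen after their values were seen. The most alike genes are the 5 highest Pearson r of log2 CPM (prior count 2) per gene. Replicate numbers recur in both groups, but the labels do not say that they pair libraries, so the main fit did not treat them as pairs. Deviations of same-numbered libraries correlated between -0.125 and 0.329, which cannot exclude a pairing. Alternatives were DESeq2 1.42.0 (on all genes, with its own filter), limma 3.58.1 (voom with sample weights), RLE and upper quartile scaling, no filter, at least 1 CPM in 5 libraries, TPM, a replicate block and leaving out each library; leaving out XBS 2 with XBS 3, or MOD 4 with XBS 5, was added after seeing the data.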

Additional observations from a re-analysis of the deposited data

Results flagged for a closer look

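In 2 of the 18 sets of 5 values (9 genes in each group), 1 library lay far from the other 4; chance does this in about 1 of 20 sets. Tlr3 was at 19.1 CPM in MOD 1, with a gap to the next library of 0.726 of the whole range of MOD. Tlr5 was at 13.1 CPM in XBS 3, with a gap of 0.849 of the range of XBS. Values this far out exceed the limit of 0.71 for 5 libraries.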

How the results depend on the processing

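The count of 0 passing genes among the 9 held under all 19 alternatives. The lowest adjusted p was 0.0882, for Myd88 by DESeq2 (0.128 by limma voom). At an unadjusted p under 0.05 there were 2 to 5 of the 9, beside 1234 to 2709 of all genes in the same fits (5 of the 9 beside 2533 by limma voom). The fits by limma voom, with RLE or upper quartile scaling and with the replicate block tested the same 14320 genes as the main fit. The replicate block gave 4 of the 9 beside 2070 of these genes, RLE scaling 3 beside 1889 and upper quartile scaling 3 beside 1890. In the other fits the number of genes tested could differ, so their counts give no shares. In the main fit it was 3 of the 9 beside 13.2% of all tested genes. Of the log2 fold changes of single genes under these alternatives, 164 kept their direction and 7 turned. Turned values outside the single left-out libraries were Cd14 by limma voom (log2 fold change 0.011) and without XBS 2 and XBS 3 together (0.016), and Tlr6 without these 2 (-0.0095). With single libraries left out, Cd14 ran from -0.16 to 0.091, Tlr4 from -0.11 to 0.0029, Tlr6 from -0.019 to 0.15 and Tlr9 from -0.36 to -0.053 (-0.062 by limma voom). Over all genes, 11 passed by edgeR, 329 by DESeq2, 67 by limma voom, 1 with the replicate block, 3 without XBS 2 and XBS 3, 0 without MOD 4 and XBS 5 (1340 at an unadjusted p under 0.05), and 4 to 15 with single libraries left out. Of the pathway genes, 2 passed by edgeR, 8 by DESeq2, 1 with RLE scaling and 0 with the replicate block, which lost both Irf5 and Nfkbia. Without XBS 2 and XBS 3 it was 0, without MOD 4 and XBS 5 it was 0, and with single libraries left out 0 to 2. At an unadjusted edgeR p under 0.05 the main fit had 22 of 70 tested pathway genes, 17 higher and 5 lower in XBS, beside 13.2% of all tested genes. The replicate block had 21, beside 2070 of all genes. Without XBS 2 and XBS 3 there were 15, beside 1613, and without MOD 4 and XBS 5 there were 20, beside 1340. These lists were chosen with earlier results of these data known. The cause of the changes between fits was not tested. With TPM in place of FPKM the order of the 9 genes was the same, with Tlr4 at rank 3. Whether equal numbers pair an XBS with a MOD library is not in the labels. Only 1 of 5 XBS libraries correlated best with the MOD library of its own number. Same-number correlations were 0.329, 0.215, -0.125, 0.0915 and 0.201 for numbers 1 to 5. So few libraries cannot exclude a pairing or a shared batch. Depth limits Tlr9 (21 to 55 counts) and the cytokine genes near 3 counts.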
